A study of Mus musculus with 8 samples.

Results

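The blood supply of a fast leg muscle was followed here through 10 genes: Pecam1, Cdh5, Cldn5, Emcn and Egfl7, which mark endothelial cells, the receptor genes Tek, Tie1, Kdr and Flt1, and Vegfa, the gene of the main angiogenic ligand. They were chosen by name, as the non-control probes whose gene name on the array is 1 of the 10. The array held 21 such probes in 57 spots, and all 10 genes were among the 16016 genes tested. RNA came from the tibialis anterior of male C57BL/6 mice aged 8 weeks, with 1 single-colour array per mouse. In Prep1deltaSM mice (n = 4) Prep1 was ablated in skeletal muscle, and the controls (n = 4) were Prep1f/+ mice, which the study also calls Prep1 flox mice. The labels do not name the promoter or the Cre line behind the deletion, nor say whether the controls carried a Cre. The question is whether ablation of Prep1 in skeletal muscle goes with a change in these vessel genes.

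The endothelium lines every capillary of the muscle. VEGF-A, which muscle fibres secrete, binds the receptor tyrosine kinases VEGFR2 (from Kdr) and VEGFR1 (from Flt1) on endothelial cells; VEGFR2 carries most of the growth signal, and VEGFR1 binds the ligand tightly and limits its supply. Tie2 (from Tek) is the receptor of the angiopoietins, which settle and stabilise vessels, and Tie1 is its relative and partner. Prep1, the protein of Pknox1, is a TALE homeodomain factor that binds DNA with Pbx proteins at sites holding the letters TGACAG.

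None of the 10 genes passed an adjusted p of 0.05, and their differences ran in both directions. Of the 10, 5 were higher and 5 lower in Prep1deltaSM, with a median log2 difference of -0.01, against -0.07 over all genes tested. The lowest adjusted p of the 10 was 0.222, for Tek, and the highest was 0.958, for Flt1 (limma, Benjamini-Hochberg over all genes). Of all genes tested, 1 passed that threshold (0.00624%), and it was Pknox1, the ablated gene (adjusted p = 0.0072, limma). Before adjustment, p was under 0.05 for 1 gene of the 10, Tek, beside 15.9% of all genes tested (5.54% higher, 10.3% lower). The groups did not overlap for 1 gene of the 10, again Tek, beside 10.5% of all genes (3.72% higher, 6.74% lower). Both shares lie near those of the array as a whole. Values below are log2 signals relative to the 75th percentile of the array's signals, so that 0 is the signal of that percentile and a step of 1 is a doubling. A gene is represented by its brightest probe, and a difference is Prep1deltaSM minus Prep1f/+.

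**Figure D1:**
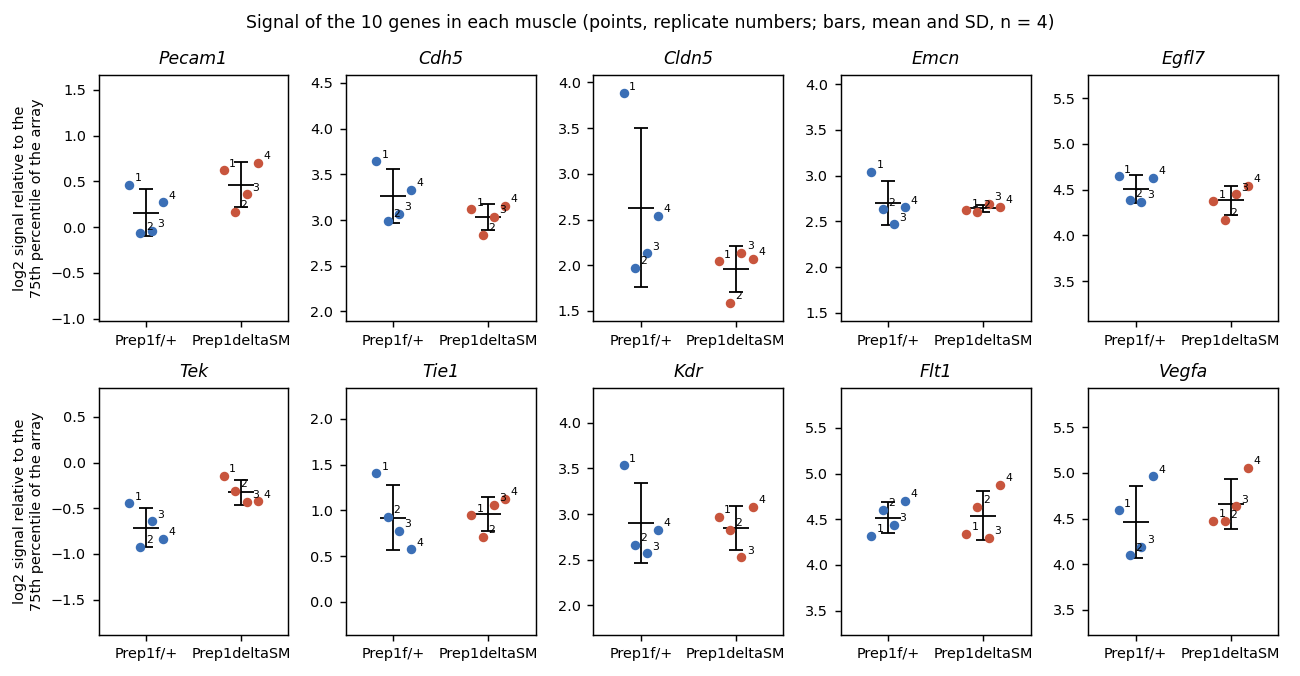
Log2 signal of each of the 10 genes, relative to the 75th percentile of the array, in 4 Prep1f/+ and 4 Prep1deltaSM muscles; points are muscles with their replicate number and bars give the mean and SD. The panels share 1 height of scale; Tek is the 1 gene whose groups do not overlap, and Prep1f/+ replicate 1 stands high for Cldn5, Kdr, Cdh5, Tie1 and Emcn.

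The label check and the state of the arrays come first. Pknox1 differed by -1.76 ± 0.13 (SE), and the lowest Prep1f/+ muscle lay above the highest Prep1deltaSM muscle, at -0.51 and -1.84. Arrays had 23787 to 27123 of 43379 non-control spots well above background, and each of 4 slides held 1 array of each group. Prep1f/+ replicates 1 and 4 stood apart on the first principal component, which held 24.4% of the variance. All 10 fast fibre markers of the labelled tissue were measured, with summed linear signals of 13698 to 17319 times the 75th percentile in Prep1f/+ and 14500 to 15944 in Prep1deltaSM. Markers of the other cells of the muscle are given with the lists at the end, since whole muscle was assayed and fewer endothelial cells cannot be told apart from less RNA per cell. With 4 arrays a group, their number sets the precision.

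Promoters are shown for 3 of the genes because the results below turn on them: Tek, whose groups did not overlap, Cldn5, whose difference was the largest of the 10, and Tie1, the relative of Tek. They are the 250 bases before and the 50 bases after the start of the gene, from RefSeq on GRCm38.p6; the capitals mark matches to TGACAG or its reverse complement CTGTCA.
Tek, chr4:94739039-94739338, plus strand: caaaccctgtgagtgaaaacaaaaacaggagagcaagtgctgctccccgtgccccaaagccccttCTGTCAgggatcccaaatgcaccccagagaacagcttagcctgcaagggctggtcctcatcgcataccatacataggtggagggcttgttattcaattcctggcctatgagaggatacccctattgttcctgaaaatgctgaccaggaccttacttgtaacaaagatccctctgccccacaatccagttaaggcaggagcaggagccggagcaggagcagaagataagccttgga
Cldn5, chr16:18776597-18776896, plus strand: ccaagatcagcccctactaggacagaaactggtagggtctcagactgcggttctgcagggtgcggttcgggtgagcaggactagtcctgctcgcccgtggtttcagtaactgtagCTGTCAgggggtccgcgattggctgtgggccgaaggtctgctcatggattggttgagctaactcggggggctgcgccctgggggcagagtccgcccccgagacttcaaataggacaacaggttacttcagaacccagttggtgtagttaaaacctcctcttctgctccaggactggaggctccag
Tie1, chr4:118489800-118490099, minus strand: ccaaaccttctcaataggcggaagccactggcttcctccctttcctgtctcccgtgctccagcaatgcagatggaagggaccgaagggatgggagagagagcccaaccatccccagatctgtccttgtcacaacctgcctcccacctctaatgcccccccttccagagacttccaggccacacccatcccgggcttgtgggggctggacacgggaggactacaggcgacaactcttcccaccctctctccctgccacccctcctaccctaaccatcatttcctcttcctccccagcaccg
The match begins 185 bases before the start in Tek and 135 bases before it in Cldn5, and in both it reads CTGTCA on the printed strand. The Tie1 window holds no match. Of the 10 genes, 8 had promoters in the table, 11 in all; Pecam1 and Cdh5 had none. A match occurred in 3 of these 11 promoters (27.3%), 1 each of Tek, Cldn5 and Egfl7, and in 19.2% of all 32851 promoters of that table (both strands searched). A match of letters is a description of the window and no evidence of binding.

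Tek, the angiopoietin receptor gene, had higher signal in every Prep1deltaSM muscle than in any Prep1f/+ muscle, by a small margin. The signal was -0.45, -0.92, -0.64 and -0.84 in Prep1f/+ replicates 1 to 4. In Prep1deltaSM replicates 1 to 4 it was -0.14, -0.31, -0.43 and -0.42. The highest control and the lowest Prep1deltaSM muscle were thus almost level. The difference was 0.39 ± 0.13 (SE; 95% interval 0.10 to 0.67), a ratio of 1.31, and it did not pass (adjusted p = 0.222, limma). The exact two-sided permutation p was 0.0286, the smallest that 70 assignments can give. Any gene whose groups do not overlap has this value, here 10.5% of all genes, so it only restates the lack of overlap. Within the 4 slides the difference was 0.78, 0.34, 0.02 and 0.40. The second Tek probe, designed on a cDNA clone, differed by 0.46 ± 0.24 (SE; 95% interval -0.09 to 1.01), with groups that overlapped: its lowest signal, -1.96, was in the control replicate in which the first probe was highest. With normexp correction (offset 50) and quantile normalization the difference of the first probe was 0.11 (adjusted p = 0.197, limma).

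Tie1, the orphan relative of Tie2, had groups that overlapped widely. Its signals were 1.41, 0.93, 0.78 and 0.57 in the controls and 0.95, 0.71, 1.06 and 1.13 in Prep1deltaSM. The Prep1deltaSM muscles lay within the range of the controls. The difference was 0.04 ± 0.18 (SE; 95% interval -0.38 to 0.45; adjusted p = 0.939, limma). Its only probe, A_51_P177171, lies at chr4:118144132-118144191 (minus strand; the files use mm9). The 60-base oligo, which reads through without a stop codon in its frame 1, is shown as the sequence that stands for Tie1 on the array.
Tie1 probe: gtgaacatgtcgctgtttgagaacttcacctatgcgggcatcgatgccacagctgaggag

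Kdr, the gene of VEGFR2, stood highest in 1 control muscle, and the groups overlapped. Its signal was 3.53 in Prep1f/+ replicate 1 and 2.66, 2.57 and 2.83 in replicates 2 to 4. The Prep1deltaSM muscles had 2.97, 2.83, 2.53 and 3.08. The lowest muscle of all was Prep1deltaSM replicate 3. The difference was -0.05 ± 0.22 (SE; 95% interval -0.55 to 0.46; adjusted p = 0.936, limma), and 0.16 without Prep1f/+ replicate 1. The array carries 10 spots of this probe, and the SD among the spots of an array was 0.04 to 0.06, against an SD between muscles of 0.44 in Prep1f/+ and 0.24 in Prep1deltaSM. A second Kdr probe, on another transcript model, was not well above background on any array.

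Flt1, the gene of VEGFR1, was measured along its length by 4 probes, and none of them separated the groups. The brightest, the most 3′ of them, had 4.32, 4.60, 4.44 and 4.70 in Prep1f/+ and 4.34, 4.64, 4.30 and 4.87 in Prep1deltaSM. Both ranges are nearly the same. The difference was 0.02 ± 0.15 (SE; 95% interval -0.32 to 0.37; adjusted p = 0.958, limma). The neighbouring probe differed by 0.02 as well, with an interval of -0.32 to 0.37. Upstream in the gene, on chromosome 5 from 148449781 to 148449840 in mm9, lies a probe designed on a separate transcript model; it differed by 0.07 ± 0.19 (SE; 95% interval -0.37 to 0.50). It was lowest in Prep1f/+ replicate 1, at 1.40, while the other 7 muscles lay between 1.82 and 2.30. The dimmest probe kept, on a cDNA clone, was also lowest in that muscle, at -4.16 against -3.48 to -2.78 elsewhere. These probes were lowest in the muscle in which Kdr, Tie1 and Cldn5 were highest. The remaining Flt1 probe was not well above background on any array.

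Vegfa, the ligand gene, varied between muscles in both groups on each of its 4 probes. The brightest gave 4.59, 4.10, 4.19 and 4.96 in Prep1f/+ and 4.47, 4.47, 4.63 and 5.05 in Prep1deltaSM. Replicate 4 was the highest muscle of each group. The difference was 0.20 ± 0.21 (SE; 95% interval -0.29 to 0.69; adjusted p = 0.669, limma), and the other 3 probes differed by 0.16, 0.34 and 0.29, each with an interval that included 0. Within slides it was 0.37, 0.28, 0.47 and -0.33. A probe with 10 spots per array showed an SD of 0.05 to 0.09 among spots and of 0.39 and 0.32 between muscles of the 2 groups. Without Prep1deltaSM replicate 4 the difference was 0.06, and without Prep1f/+ replicates 1 and 4 together it was 0.51 (adjusted p = 0.261).

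**Figure D2:**
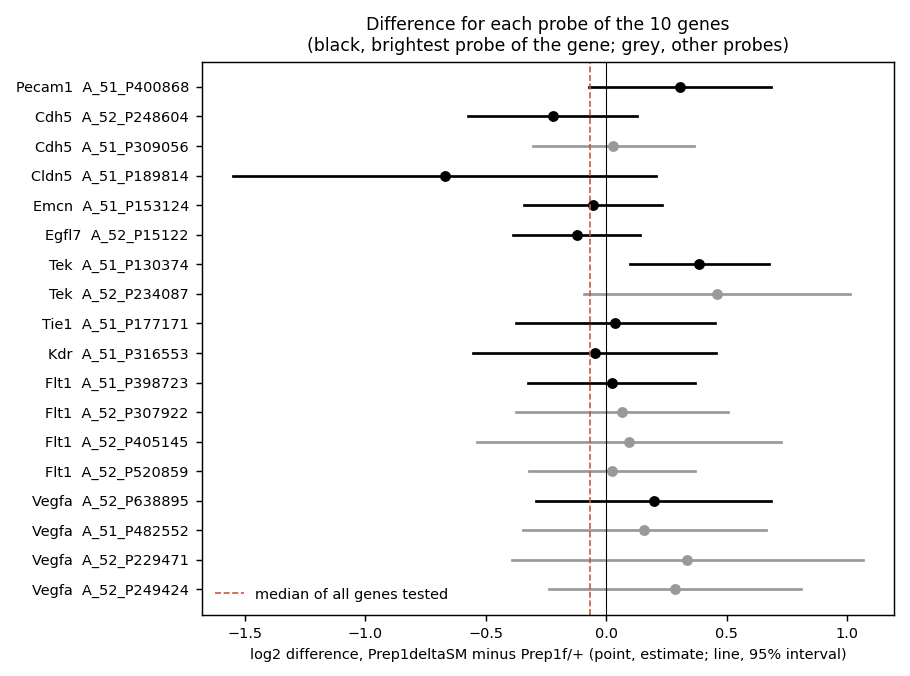
Log2 difference, Prep1deltaSM minus Prep1f/+, of the 18 probes of the 10 genes that were well above background on at least 4 arrays; points are estimates, lines are 95% intervals of limma, and black marks the brightest probe of a gene. The intervals of all probes but that of the brightest Tek probe include 0, and the interval of Cldn5 is the widest.

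Pecam1, the adhesion molecule CD31 of endothelial junctions, which platelets and leukocytes also carry, had somewhat higher signals in Prep1deltaSM. The controls had 0.47, -0.07, -0.04 and 0.27, and Prep1deltaSM muscles had 0.62, 0.16, 0.36 and 0.70. The groups overlapped, although on each of the 4 slides the Prep1deltaSM array was the higher one, by 0.69, 0.21, 0.24 and 0.09. The difference was 0.31 ± 0.16 (SE; 95% interval -0.07 to 0.68; adjusted p = 0.397, limma), or 0.12 with normexp and quantile normalization. Each value is the mean of 10 spots, whose SD within an array was 0.06 to 0.08. A second Pecam1 probe was not well above background on any array. The 60-base probe used here lies on chromosome 11 and spans 1854 bases of genome, from 106542389 to 106544242 in mm9 on the minus strand, so it crosses at least 1 exon junction. It is shown as the probe of the 10 genes that spans an intron.
Pecam1 probe: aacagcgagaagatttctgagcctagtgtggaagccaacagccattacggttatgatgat

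Cldn5, the claudin of endothelial tight junctions, had the largest difference of the 10, with 1 control muscle far above the rest. The signal was 3.88 in Prep1f/+ replicate 1 and 1.97, 2.13 and 2.54 in replicates 2 to 4. In Prep1deltaSM it was 2.04, 1.59, 2.14 and 2.07. The other 3 controls overlapped with Prep1deltaSM. The difference was -0.67 ± 0.39 (SE; 95% interval -1.56 to 0.21; adjusted p = 0.424, limma), but -0.25 without Prep1f/+ replicate 1 and -0.09 without Prep1f/+ replicates 1 and 4 together. The slide that holds Prep1f/+ replicate 1 gave -1.81, and the other slides gave 0.07, -0.54 and -0.40. An interval this wide leaves a decrease of 2.94-fold within its bounds.

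Cdh5, the VE-cadherin gene of adherens junctions, was likewise highest in that control muscle. Its signals were 3.64, 2.99, 3.07 and 3.33 in Prep1f/+ and 3.12, 2.84, 3.03 and 3.16 in Prep1deltaSM. The groups overlapped. The difference was -0.22 ± 0.15 (SE; 95% interval -0.57 to 0.13; adjusted p = 0.498, limma), with a second, dimmer probe at 0.03, whose interval ran from -0.30 to 0.36. Without Prep1f/+ replicate 1 the difference was -0.09. The probes of Cdh5 therefore gave opposite signs, neither clear of 0.

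Emcn, the sialomucin of venous and capillary endothelium, and Egfl7, a secreted factor of endothelial cells, were the most even of the 10. Emcn had 3.04, 2.63, 2.47 and 2.65 in Prep1f/+ and 2.62, 2.61, 2.70 and 2.66 in Prep1deltaSM, with an SD of 0.24 and 0.04. Its difference was -0.05 ± 0.12 (SE; 95% interval -0.34 to 0.23; adjusted p = 0.855, limma). Egfl7 had 4.65, 4.38, 4.37 and 4.63 in Prep1f/+ and 4.37, 4.17, 4.45 and 4.54 in Prep1deltaSM. Its difference was -0.12 ± 0.11 (SE; 95% interval -0.38 to 0.14; adjusted p = 0.620, limma), the narrowest interval of the 10. Egfl7 was lower in Prep1deltaSM on all 4 slides, with differences of -0.01, -0.19, -0.10 and -0.18, and the difference was -0.05 without Prep1deltaSM replicate 2. The bounds correspond to a decrease of 1.26-fold and an increase of 1.17-fold for Emcn, and to 1.30-fold and 1.10-fold for Egfl7. Larger changes lie outside these intervals, but changes within them could not be seen with 4 muscles per group.

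**Figure D3:**
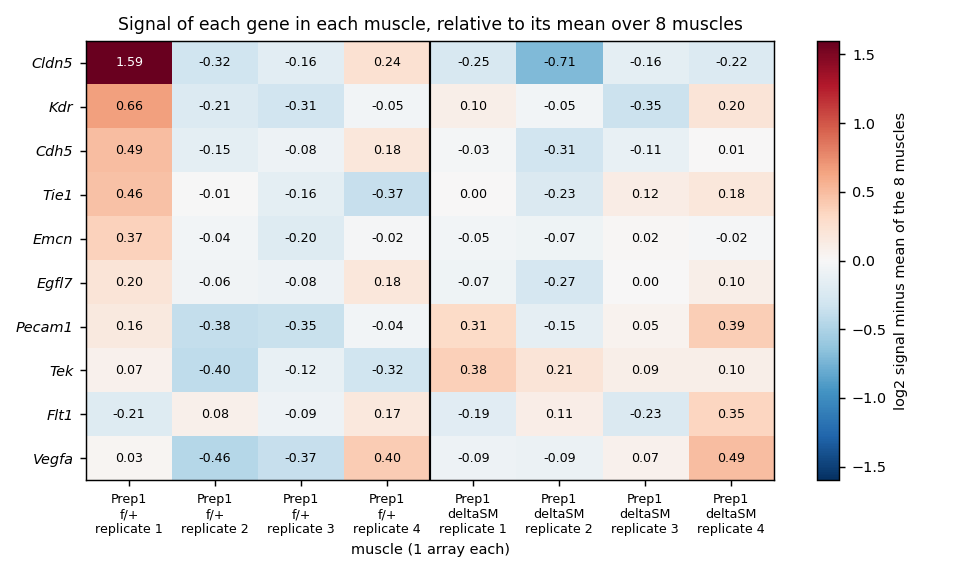
Log2 signal of each gene in each of the 8 muscles, minus the mean of that gene over the muscles; colour gives the same number as the text in the cell, and the vertical line parts the groups. Prep1f/+ replicate 1 is the highest muscle for Cldn5, Kdr, Cdh5, Tie1, Emcn and Egfl7, and is below the mean for Flt1.

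Across muscles, 1 control animal stood out for the endothelial genes. Prep1f/+ replicate 1 was the highest of the 8 muscles for 6 of the 9 endothelial genes (all of the 10 but Vegfa). The mean of the 9, each taken relative to its mean over the muscles, was 0.42 in that muscle and -0.17, -0.17 and -0.00 in the other controls. In Prep1deltaSM it was 0.02, -0.16, -0.06 and 0.12. Without Prep1f/+ replicate 1 the median difference of the 10 genes was 0.11, in place of -0.01. A wider list of 35 endothelial surface and junction genes was not highest in that muscle. Its mean was -0.05 there, and -0.10, -0.12 and 0.21 in Prep1f/+ replicates 2 to 4. The list of ligands and co-receptors stood at 0.17 in replicate 1 and 0.30 in replicate 4. For the endothelial transcription factors and Notch genes these values were 0.09 and 0.21. By Pearson's r over the 8 muscles, the genes most like the mean of the 9 were the ETS factor gene Elf1 (0.99), Pqlc1 (0.96), Itga3 (0.96), Plekha1 (0.95) and Sphk2 (0.95), with Spearman's rho of 1.00, 0.90, 0.86, 0.86 and 0.76. Without the 2 muscles farthest from the median, Prep1f/+ replicate 1 and Prep1deltaSM replicate 4, these were 0.97, 0.92, 0.73, 0.78 and 0.59. Most like Vegfa were Nek6 (0.96), Gm2745 (0.95), Asap1 (0.94), the unnamed probe A_51_P182813 (0.94) and Gm5458 (0.93). These r values describe the highest of 16016 genes and carry no test.

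Other genes of vessel growth were read from 4 lists, 112 genes in all, of which 100 were tested. None passed an adjusted p of 0.05 (limma). At an unadjusted p under 0.05 there were 4 higher and 9 lower, 13.0% of those tested beside 15.9% of all genes, and the groups did not overlap for 6, or 6.0% beside 10.5%. The median difference was -0.01. With normexp and quantile normalization, 32 of 46 genes (the 10, Pknox1 and those named from these lists), Pknox1 (-0.36) among them, had differences over 1.5 times smaller. The offset of 50 added to each signal there makes log2 differences of dim probes smaller. The 32 also held bright genes, such as Vegfb, at -0.11 in the main fit and -0.006 with that normalization. Quantile normalization alone, without the offset, gave -0.008 for Vegfb. The cause of the smaller differences was not tested. Pknox1 still passed with normexp and quantile normalization (adjusted p = 0.0081, limma). The genes named next are those with the smallest p in each list and direction, and a few fixed by name.

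Among 20 ligands, co-receptors and angiogenic factors, 8 stood higher and 12 lower (median -0.06). Adm, the gene of the vasodilator adrenomedullin, had -0.13, -0.10, -0.36 and 0.05 in Prep1f/+ and -0.86, -0.76, -0.58 and -0.64 in Prep1deltaSM. Its groups did not overlap, and the difference was -0.58 ± 0.11 (SE; adjusted p = 0.129, limma). With normexp and quantile normalization it was -0.14 (adjusted p = 0.0831, limma). Pgf, the gene of placental growth factor, a ligand of VEGFR1, differed by -0.49 ± 0.18 (SE), also without overlap (adjusted p = 0.261), but by -0.31 without Prep1f/+ replicate 4 and by -0.03 with normexp and quantile normalization. Angptl4, an inhibitor of lipoprotein lipase, differed by -0.97 (adjusted p = 0.226), or -0.41 with that normalization. The other VEGF genes lay near 0, with Vegfb at -0.11, Vegfc at -0.13 and Figf (VEGF-D) at -0.01. The angiopoietin genes Angpt1, which activates Tie2, and Angpt2, its context-dependent antagonist, differed by 0.07 and -0.24, with adjusted p of 0.857 and 0.636. The co-receptor genes Nrp1 and Nrp2 differed by -0.03 and -0.14. The smallest p values among higher genes belonged to Cxcl12 at 0.16, Ramp2, part of the adrenomedullin receptor, at 0.13 and Fgf2 at 0.11 (adjusted p from 0.647 to 0.805). Flt4, Angpt4 and Hgf did not reach the filter of 4 arrays well above background.

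Of 35 surface and junction genes, 20 stood higher and 15 lower (median 0.03). Cd34, a sialomucin of endothelial and stem cells, had 4.83, 4.95, 5.07 and 4.90 in Prep1f/+ and 4.69, 4.43, 4.67 and 4.54 in Prep1deltaSM. The groups did not overlap, and the difference was -0.35 ± 0.09 (SE; adjusted p = 0.178, limma). Vwf, the von Willebrand factor gene, differed by -0.30 (adjusted p = 0.289) and Plvap, of endothelial diaphragms, by -0.22 (0.393). In the other direction stood Acvrl1, the endothelial BMP receptor ALK1, at 0.58 ± 0.20 (SE; adjusted p = 0.231; 0.06 with normexp and quantile normalization), Tmem204 at 0.33 (0.336) and Nos3, the endothelial nitric oxide synthase gene, at 0.30 (0.321). Nos3 was the higher array on all 4 slides. Eng, the TGF-beta co-receptor endoglin, differed by 0.22 (adjusted p = 0.624).

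The 25 endothelial transcription factors and Notch genes split 14 to 11, with a median of 0.00. Fli1, an ETS factor of endothelial and blood cells, had 1.54, 1.51, 1.32 and 1.29 in Prep1f/+ and 1.96, 1.69, 1.58 and 1.76 in Prep1deltaSM, without overlap. It differed by 0.34 ± 0.11 (SE; adjusted p = 0.224, limma), although its other probe differed by -0.11. Lmo2, a cofactor of blood and vessel development, differed by -0.38 (adjusted p = 0.170), again without overlap, but by -0.01 with normexp and quantile normalization, and its partner Tal1 by -0.26 (0.353). Klf2, which responds to blood flow in endothelium, differed by -0.61 ± 0.26 (SE; adjusted p = 0.308), with 7.32 and 7.43 in Prep1f/+ replicates 1 and 4 and 6.10 to 6.52 in the other 6 muscles. Ets1 differed by 0.20, Efnb2, the arterial ephrin gene, by 0.14 and Erg by 0.03, with adjusted p of 0.565, 0.538 and 0.930.

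Genes of the hypoxia pathway, both its regulators and some of its targets, and of the PGC-1 coactivators and their partners numbered 20, with 7 higher, 13 lower (median -0.14). Hif1an, the hydroxylase that blocks the activation domain of HIF, had 0.41, 0.14, 0.19 and 0.20 in Prep1f/+ and 0.79, 0.70, 0.78 and 0.61 in Prep1deltaSM. The groups did not overlap, and the difference was 0.48 ± 0.09 (SE; adjusted p = 0.127, limma), with its 3 probes at 0.19 to 0.48. With normexp and quantile normalization it was 0.18 (adjusted p = 0.0508, limma). Egln1, the prolyl hydroxylase that marks HIF for destruction, differed by 0.40 (adjusted p = 0.214). Vhl, which recognises that mark, differed by -0.32 (0.297), the HIF target Pdk1 by -0.27 (0.278) and Esrrg, a nuclear receptor of oxidative fibres, by -0.36 (0.366). Hif1a itself differed by 0.22 (0.364) and Epas1, the gene of HIF-2, by 0.06 (0.785), though by -0.11 when its 3 probes were averaged. Ppargc1a, a coactivator known to raise Vegfa in muscle, had its highest signal, 4.54, in Prep1deltaSM replicate 4, where Vegfa was also highest, and 2.89 to 3.40 in the other 7 muscles. Those included Prep1f/+ replicate 4, with 3.34, in which Vegfa was second highest.

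**Figure D4:**
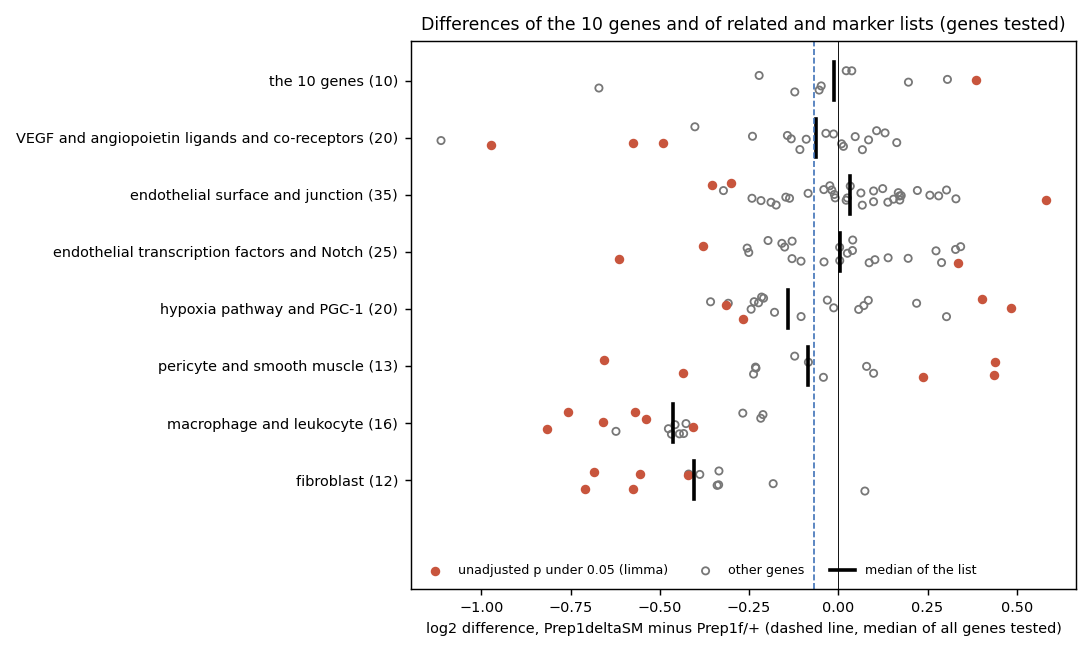
Log2 difference, Prep1deltaSM minus Prep1f/+, of each gene tested in the 10-gene set, the 4 related lists and 3 lists of markers of other cells; black bars are list medians, filled points have an unadjusted p under 0.05 in limma, and the dashed line is the median of all genes, -0.07. The vessel lists have medians from -0.14 to 0.03, while the leukocyte and fibroblast markers lie lower, at -0.46 and -0.40.

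Markers of the other cells in the muscle were read in the same way; of all genes tested, 62.7% were lower in Prep1deltaSM, and 10.3% were lower at an unadjusted p under 0.05. All 16 macrophage and leukocyte markers tested were lower in Prep1deltaSM (median -0.46, 6 at an unadjusted p under 0.05, 0 at an adjusted p under 0.05), with summed signals of 24.2 to 51.0 in Prep1f/+ and 17.7 to 29.6 in Prep1deltaSM, in units of the 75th percentile. Of 12 fibroblast markers 11 were lower (median -0.40), 5 at an unadjusted p under 0.05 and 0 at an adjusted p under 0.05, and their sums were 418 to 707 and 317 to 726. The 13 pericyte and smooth muscle markers, of cells that wrap the vessels, had a median of -0.08, with sums of 298 to 382 and 359 to 394, and went both ways. These sums rest mostly on Acta2 and Des, the brightest of the list, with signals of 7.19 to 7.92 and 5.97 to 6.56, so they do not speak for the other markers. Of the 13, 3 were higher at an unadjusted p under 0.05, all without overlap: Acta2 (0.44, adjusted p = 0.171, limma), Myh11 (0.44, 0.179) and Abcc9 (0.24, 0.245). Over all genes tested, 5.54% were higher at that p and 3.72% were higher without overlap. Tagln and Cnn1, also smooth muscle genes of the list, differed by -0.23 and -0.04. The 2 lower at that p were Cspg4, the NG2 proteoglycan of pericytes (-0.44, adjusted p = 0.221, limma), and Anpep (-0.66, 0.300). Of the lymphatic markers 6 were tested, with a median of -0.09 and sums of 1.58 to 3.87 and 1.87 to 2.60. Of 6 platelet markers, 4 (Itga2b, Gp1ba, Gp9 and Ppbp) did not reach the filter. Pf4, the platelet chemokine, was measured in all 8 muscles, with means of 1.96 and 1.33 and a difference of -0.64 (unadjusted p = 0.0375, adjusted p = 0.286, limma), and Gp6 differed by -0.10. Of 10 adipocyte markers 8 were lower (median -0.78), 0 at an unadjusted p under 0.05, with sums of 511 to 843 and 265 to 624. These sums rest mostly on Car3, the brightest of the 10, which was highest in Prep1f/+ replicate 4, at 9.46. That muscle had the lowest Adipoq signal of the controls, -0.91. The mean of the 10 markers, each relative to its own mean, was 0.85 and 0.76 in Prep1deltaSM replicates 1 and 3. It was -1.76 and -1.11 in replicates 2 and 4, against -0.46 to 0.87 in Prep1f/+. The 4 erythroid markers tested had a median of 0.94 and sums of 94.0 to 355 and 151 to 676. Of these, 3 were higher and 1 lower, 0 at an unadjusted p under 0.05. Their mean, taken in the same way, was 1.58 in Prep1deltaSM replicate 2. It was -0.35, 0.23 and 0.03 in replicates 1, 3 and 4, against -0.90 to 0.74 in Prep1f/+. Leukocytes and platelets also carry Pecam1, and some blood cells carry Cd34, Fli1 and Lmo2; the part of these cells in the differences of those genes was not tested.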

How the data were processed

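Each scanner file lists an intensity per spot (gProcessedSignal), deposited by the authors; per the file headers it came from Feature Extraction 10.5.1.1, with background subtraction and detrending, while 9.1 is the version in the submitters' processing notes. The authors' own table of normalized intensity served as an alternative. Only its rows within 0.1 log2 of the quantile-normalized values made here were used, 26240 of 32812. Its results were therefore bound to lie near those of quantile normalization, and their likeness is no separate check. No row of Cdh5, Pecam1 or Vegfa passed this limit and the background filter, so it gave no value for them.

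Log2 intensity was set relative to the 75th percentile of an array. Non-uniform spots (0 to 11 an array) were dropped and repeated spots averaged. A probe had to be well above background on 4 or more arrays (24488 of 41174 probes passed), and the brightest probe stands for its gene. The groups were tested by limma 3.58.1 (lmFit, eBayes; R 4.3.3), with Benjamini-Hochberg adjustment over 16016 genes; the code was checked on simulated data. The labels give mice but not litters or cages, and p-values measure the spread between these mice. Mouse numbers pair no samples; each slide held 1 array of each group, and slide served as a block in an alternative. Members and lists were chosen with earlier results of these data known. Named are the 10 genes, Pknox1, the 3 genes of smallest p per list and direction, some genes fixed by name, and the 5 genes most like each pattern. No mm9 annotation was used here, so exon or UTR is not given.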

Additional observations from a re-analysis of the deposited data

Results flagged for a closer look

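In 4 of 92 groups of 4 muscles, over the genes named, 1 muscle stood apart (its gap to the nearest other muscle over the range of the group, Dixon's ratio, was above the critical value at 95%). Chance alone marks about 1 group in 20, and none of the 4 belonged to the 10 genes. Angptl4 was lowest in Prep1f/+ replicate 2 (ratio 0.912; 0.48 against 1.54 in the nearest control). Ramp2 was lowest in Prep1f/+ replicate 1 (0.881; 3.73 against 4.18). Lmo2 was highest in Prep1f/+ replicate 4 (0.861; -3.33 against -3.47) and in Prep1deltaSM replicate 2 (0.876; -3.60 against -3.87).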

How the results depend on the processing

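Of 23 alternatives, 0 gave a member or a gene of the 4 related lists past an adjusted p of 0.05 (limma), and the adjusted p of Tek ran from 0.129 to 0.511. Pknox1 itself passed in 17 of the 23, and its adjusted p reached 0.145 (limma). Over all genes, calls numbered 63 with normexp and quantile normalization, 20 with a trended robust fit, 22 with array weights, 0 with slide as a block, 0 without Prep1f/+ replicates 1 and 4 together, 0 without Prep1deltaSM replicates 2 and 4 together, and 0 to 5 with single arrays left out. Members at an unadjusted p under 0.05 numbered 2 with array weights, 3 without Prep1f/+ replicates 1 and 4, and 1 to 2 with single arrays left out. The share of all genes at that p in these settings is not given, so these counts are not read as a result about the 10 genes. The median difference of the 10 genes ran from -0.07 to 0.11. Leaving out both Prep1f/+ replicates 1 and 4 gave adjusted p of 0.261 for Vegfa. Signs of uncalled genes turned as follows; the cause was not tested. With normexp and quantile normalization: Emcn 0.00462, Figf 0.0043, Kdr 0.014, Nrp1 0.000179. With quantile normalization alone: Emcn 0.0078, Figf 0.012, Kdr 0.017. With the authors' values: Emcn 0.010, Figf 0.017. With the mean of probes: Angpt1 -0.11, Cxcl12 -0.0014, Epas1 -0.11, Nrp1 0.17. With array weights: Flt1 -0.051. Without Prep1f/+ replicates 1 and 4: Angpt2 0.023, Cdh5 0.0069, Egfl7 0.0093, Emcn 0.095, Kdr 0.24, Nrp2 0.049. Without Prep1deltaSM replicates 2 and 4: Epas1 -0.063, Flt1 -0.20. With single arrays left out, the ranges that crossed 0 were Angpt1 -0.026 to 0.18, Emcn -0.13 to 0.061, Erg -0.035 to 0.076, Fgf2 -0.037 to 0.28, Figf -0.11 to 0.094, Flt1 -0.0901 to 0.102, Kdr -0.16 to 0.16, Nrp1 -0.19 to 0.088, Nrp2 -0.24 to 0.048, Ppargc1a -0.052 to 0.498, Tie1 -0.078 to 0.199, Vegfc -0.32 to 0.034.
No paired analysis by mouse number was possible because the numbers only name the mice. With slide as a block, which pairs the arrays, the 10 genes had 0 calls as well. No other gene passed in that setting, Pknox1 included, so the 0 calls there say nothing about the 10 genes.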
